A study of Drosophila melanogaster with 36 samples.

Results

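RNA in pool 3 of sucrose gradients was compared between orb2-delta-zz embryos collected 1-2h and 0-1h after egg laying, 3 libraries at each time. These are 6 of the 36 libraries of a Drosophila melanogaster series with 2 genotypes, 3 times and 2 gradient pools. In orb2-delta-zz flies the ZZ domain, a zinc-binding fold, is deleted from ORB2, a CPEB-type regulator of mRNA translation and stability. The stock called wild type here is w1118, the line as it was before injection. Both genotypes were raised and lysed in the same way, in a buffer with cycloheximide and heparin, and ribosomal RNA was removed before stranded libraries were made. The labels give total RNA from embryo lysates. Pool 3 of wild type and pool 1 of orb2-delta-zz at the same times, 6 libraries each, are used for comparison. The labels leave unsaid which fractions went into pool 1 or pool 3, how many lines carry the edit, or whether replicates came from separate collections, so p-values measure the spread between these samples, which may be technical.

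The values are TPM, a length-corrected share of each library scaled to 1000000 transcripts. A table exists for each time and holds only genes above 0 in all 12 libraries of that time. There were 7684 genes listed at both times, 1039 at 1-2h only and 62 at 0-1h only, and 7254 of the 7684 had a mean of at least 1 TPM over the 6 libraries and were tested. Differences are in log2(TPM + 1), 1-2h minus 0-1h, a scale that understates the change of genes at a few TPM. A gene is called where the adjusted p of limma, a linear model with a shared estimate of spread, was under 0.05.

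In the first hours after laying, a fly embryo runs on RNA and protein that the mother placed in the egg. Nuclei divide in a common cytoplasm, maternal mRNAs are then destroyed in waves, and a small set of mostly short genes is switched on by factors such as Zelda before the main activation of the genome. In ovaries and embryos many maternal mRNAs are held silent by repressors and become translated at egg activation, so association with ribosomes, which sucrose gradients separate by size, changes over the same hours.

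The libraries held the RNA of young embryos. The 9 listed of 10 early embryo markers, which include the maternal mRNAs bcd, osk, smg and png, summed to 7250 to 8084 TPM at 1-2h and 6190 to 7898 TPM at 0-1h. Of 22 egg-shell and follicle-cell markers only ndl was listed, at 0.396 to 0.593 TPM over the 6 libraries, and of 22 adult markers only Yp3, at 0-1h, at 0.074 to 0.307 TPM. Library totals were 29.3 to 37.4 M normalized counts (M, 1000000), and the depth estimated from the step between low values was 32.5 to 45.7 M reads.

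A pair of libraries stood apart. Of 35 markers of older embryos (muscle, neuron, cuticle), 12 were tested, and 9 of these were under 5 TPM in at least 1 library. The 9 summed to 87.6, 89.2 and 318 TPM at 1-2h and to 685, 3.46 and 26.4 TPM at 0-1h. All 12 summed to 702, 651 and 909 TPM at 1-2h and to 1246, 585 and 623 TPM at 0-1h, a smaller contrast. In both sums replicate 1 at 0-1h was the highest of the 6 libraries and replicate 3 at 1-2h the next, and the groups overlapped. The remaining tested markers were Cht2, Idgf6 and Syx1A. Of the 0-1h libraries, replicate 1 was the lowest for Cht2 and Idgf6 and the highest for Syx1A. Act57B, a muscle actin, had 52.7, 51.9 and 211 TPM at 1-2h and 438, 0.837 and 18.9 TPM at 0-1h. The part of older embryos in the results was not tested, but list counts below that change by over 1.5 times without these 2 libraries, and several calls that are lost, are given both ways.

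**Figure D1:**
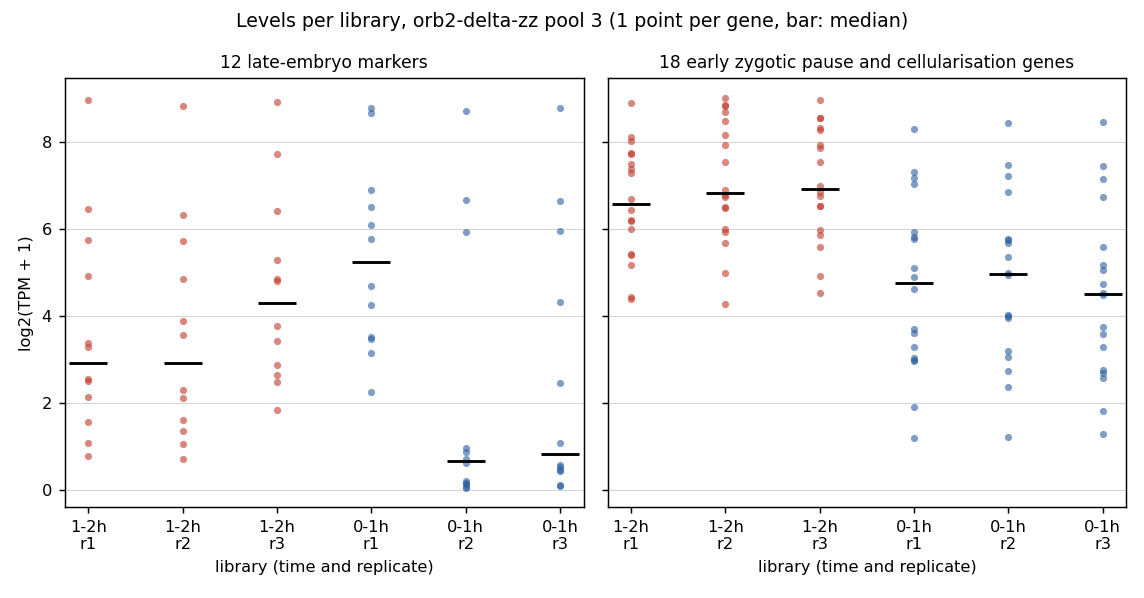
Level (log2(TPM + 1)) of each gene in each pool 3 library of orb2-delta-zz embryos, for the 12 tested late-embryo markers and the 18 tested genes of the early zygotic pause and cellularisation list. Bars are medians; replicate 1 at 0-1h is the highest library for the late-embryo markers, with a median of 5.24, and not for the early zygotic genes.

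RNA levels in pool 3 changed widely between the times. Of the 7254 genes tested, 3964 (54.6%) were called, 1945 of them (26.8%) higher and 2019 (27.8%) lower at 1-2h (limma, adjusted p under 0.05). The median difference of all genes was 0.07 and the middle 80% of genes lay between -0.87 and 0.44, with a median standard error of 0.10. In 64.0% of the genes tested the 3 libraries of 1-2h did not overlap those of 0-1h (32.6% higher and 31.4% lower). The large changes were unevenly spread. At least 2-fold differences were called for 213 genes higher (2.94%) and 576 lower (7.94%), and at least 4-fold higher ones for 96. Without the 2 libraries that stood apart, 1543 genes were called higher and 1843 lower, and 787 of the 789 genes with a 2-fold call were called again. The 6 libraries are whole embryos, where numbers of nuclei or cells and RNA per nucleus or cell cannot be told apart. TPM are shares, so rises and falls are relative to the other RNA of pool 3. The libraries also give RNA of pool 3 only, not of the whole lysate. Some genes that rose in pool 3 were lower at 1-2h in pool 1, such as twe (0.57 in pool 3, -1.57 in pool 1). Others were higher in both, such as bnk (3.11 and 3.86).

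**Figure D2:**
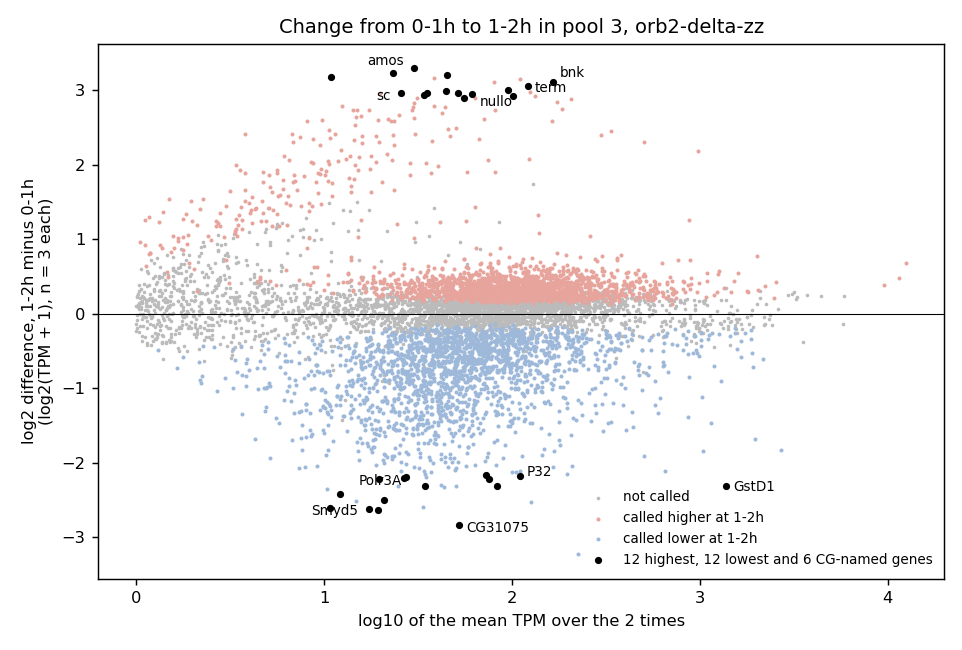
Difference in log2(TPM + 1), 1-2h minus 0-1h, against log10 of the mean TPM for the 7254 genes tested in pool 3 of orb2-delta-zz embryos (n = 3 libraries each). Black points are the genes named by rank; the 12 highest lie between 2.89 and 3.29 and the 12 lowest between -2.62 and -2.16.

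Of the 12 largest rises, 5 (bnk, term, Elba3, nullo and Elba1) are on the list of early zygotic genes described below. amos, a proneural bHLH factor and the largest rise among genes with a name other than CG or CR, had 48.2, 59.6 and 58.4 TPM at 1-2h and 4.59, 4.54 and 5.08 TPM at 0-1h. Every 1-2h library was above every 0-1h library, as the choice of these 12 genes required. The difference was 3.29 ± 0.15 (SE, adjusted p = 1.84e-07, limma, n = 3 each). bnk, which holds the actin rings of cellularisation open, had 213, 359 and 316 TPM at 1-2h and 33.5, 40.1 and 25.8 TPM at 0-1h, without overlap (3.11 ± 0.25, adjusted p = 2.95e-06). term, an early zinc-finger gene, had 164, 243 and 244 TPM at 1-2h and 23.8, 29.6 and 22.0 TPM at 0-1h. dunk, a regulator of cortical myosin during cellularisation, had 117, 209 and 189 TPM at 1-2h and 19.7, 25.0 and 15.8 TPM at 0-1h. In bnk, term and dunk alike, replicate 1 was the lowest of the 1-2h libraries and still several-fold above all 0-1h libraries.

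The other genes among the 12 highest had log2 differences of 2.89 to 2.99. Bro, the partner subunit of Runx factors, had 61.3, 89.3 and 89.2 TPM at 1-2h and 7.54, 10.8 and 8.97 TPM at 0-1h. nullo, an actin regulator of the cellularisation furrow, had 86.0, 117 and 126 TPM at 1-2h and 12.1, 15.0 and 12.4 TPM at 0-1h. Elba1 and Elba3 encode subunits of an insulator complex that acts only in the early embryo, and both were among the 12. Elba1 had 72.0, 108 and 114 TPM at 1-2h and 11.1, 14.5 and 11.0 TPM at 0-1h, and Elba3 63.3, 105 and 108 TPM at 1-2h and 8.75, 15.3 and 8.85 TPM at 0-1h. The subunit Elba2 was abundant at both times, with 476, 514 and 499 TPM at 1-2h and 316, 343 and 349 TPM at 0-1h, and rose by only 0.56 (adjusted p = 1.55e-04). scw, a BMP ligand of the dorsal side, had 48.5, 70.5 and 70.8 TPM at 1-2h and 6.57, 9.02 and 6.08 TPM at 0-1h. Neu2 averaged 61.0 ± 13.3 TPM at 1-2h and 7.16 ± 1.93 TPM at 0-1h, and bard averaged 179 ± 42.0 TPM at 1-2h and 22.8 ± 6.38 TPM at 0-1h (SD, n = 3 each). Among genes with only a CG number, CG16815 (3.23), CG34266 (3.20) and CG16813 (3.17) had the largest log2 differences. CG16813 had 20.6, 18.3 and 22.1 TPM at 1-2h and 1.30, 1.33 and 1.46 TPM at 0-1h.

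**Figure D3:**
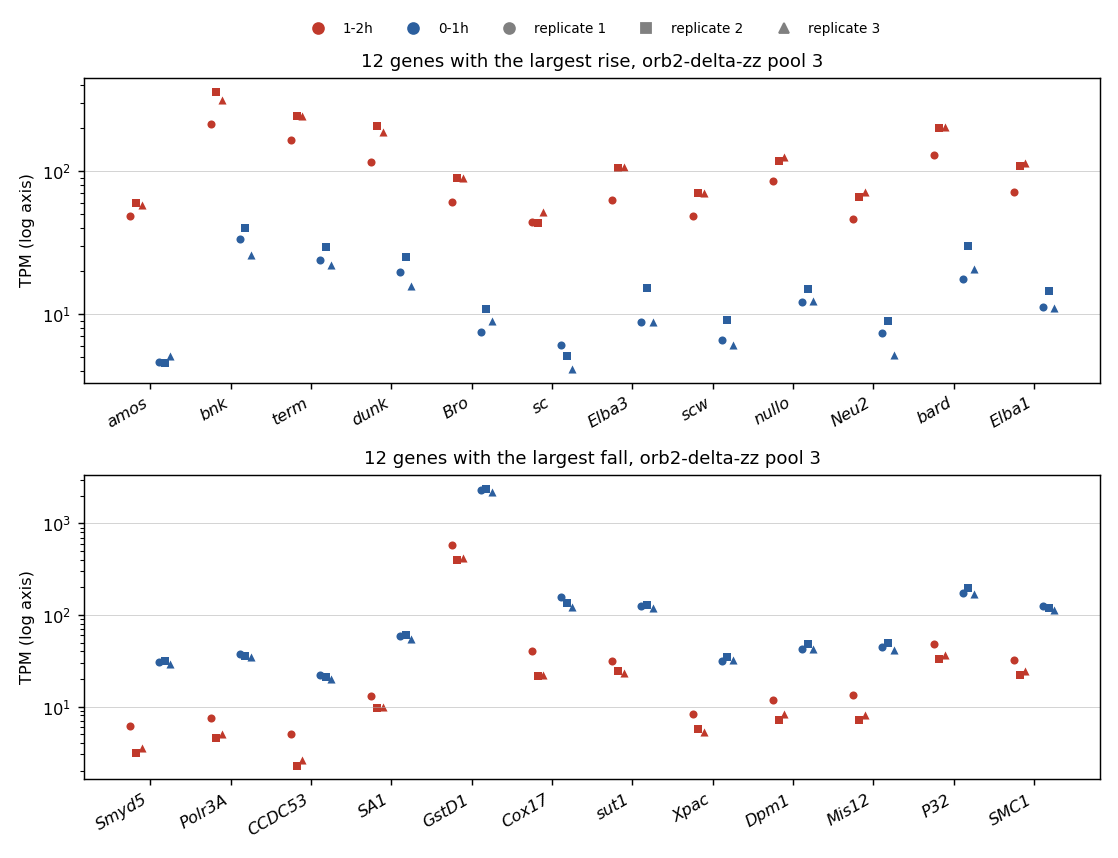
TPM (log axis) in each pool 3 library of orb2-delta-zz embryos for the 12 genes with the largest rise and the 12 with the largest fall, 1-2h left of 0-1h, with replicates by symbol. The 24 genes were chosen among those whose 3 libraries of 1-2h do not overlap those of 0-1h.

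The list of early zygotic genes for the pause of the cell cycle and cellularisation had 17 of 18 tested members called higher, against 26.8% of all genes, with a median difference of 2.83 against 0.07. Z600, an inhibitor of mitotic cyclins that stops the divisions of the blastoderm, had 257, 460.0 and 372 TPM at 1-2h and 55.3, 53.1 and 35.2 TPM at 0-1h (2.88 ± 0.24, adjusted p = 3.49e-06). halo, which directs lipid droplet transport, had 209, 455 and 307 TPM at 1-2h and 53.4, 53.6 and 32.3 TPM at 0-1h. trbl, which drives destruction of the phosphatase String, rose less, by 0.68, with 72.9, 90.2 and 91.4 TPM at 1-2h and 59.8, 50.5 and 47.3 TPM at 0-1h. slam, needed to grow the cleavage furrow, had 274, 414 and 371 TPM at 1-2h and 157, 177 and 174 TPM at 0-1h. Both trbl and slam were above 40 TPM in every 0-1h library. CG13711 and CG13712, both on arm 3L, rose by 2.89 and 2.77. The member called lower was toc, a maternal microtubule-associated protein, at -0.35 (adjusted p = 0.0394), and it was not called without the 2 libraries that stood apart, nor in 6 of the 12 fits that left out a library each. Sry-alpha, a further cellularisation gene of the list, is absent from the 0-1h table and had 61.0, 110.0 and 98.5 TPM at 1-2h.

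Among sex determination and dosage compensation genes, 13 of 18 were called higher (72.2%, against 26.8% of all genes) and 2 lower (11.1%, against 27.8%). The X-linked signal elements that count X chromosomes rose most. sc had 44.1, 43.2 and 51.6 TPM at 1-2h and 6.09, 5.05 and 4.14 TPM at 0-1h (2.96 ± 0.22, adjusted p = 1.63e-06). sisA had 21.4, 25.3 and 32.1 TPM at 1-2h and 4.50, 4.16 and 1.80 TPM at 0-1h, and upd1 13.3, 20.6 and 22.1 TPM at 1-2h and 3.45, 2.98 and 1.37 TPM at 0-1h. None of these 3 overlapped between the times, as in 64.0% of all genes tested. The autosomal repressor of the same switch, dpn, rose by 2.26, with 32.04, 41.7 and 44.6 TPM at 1-2h and 9.38, 7.52 and 5.64 TPM at 0-1h. Sxl, the switch gene itself, fell by 0.36, with 175, 163 and 180.0 TPM at 1-2h and 243, 219 and 205 TPM at 0-1h (adjusted p = 0.00107). da, the maternal bHLH partner of the signal elements, fell by 0.38 (adjusted p = 0.00299). With the 2 libraries that stood apart left out, 10 members were called higher and 2 lower.

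Anterior-posterior patterning genes were called higher in almost every class. Of the gap genes, which divide the embryo into broad domains, and the maternal genes listed with them, 11 of 12 tested members rose. This was 91.7%, against 26.8% of all genes, and the median was 1.85. tll, a terminal gap gene, had 20.9, 28.0 and 27.4 TPM at 1-2h and 3.48, 3.06 and 2.39 TPM at 0-1h (2.73 ± 0.22, adjusted p = 2.96e-06). gt had 40.0, 59.2 and 57.4 TPM at 1-2h and 8.09, 9.06 and 5.70 TPM at 0-1h, and Kr, the central gap gene, 28.0, 49.4 and 41.9 TPM at 1-2h and 10.4, 6.59 and 3.93 TPM at 0-1h. kni and hkb rose by 2.34 and 2.35. The 3 genes of this list with known maternal mRNA moved less. bcd rose by 0.59, with 258, 253 and 257 TPM at 1-2h and 129, 194 and 194 TPM at 0-1h, and replicate 1 at 0-1h was the low library. cad rose by 0.26, and hb, whose maternal and zygotic transcripts are counted together, differed by 0.01 and was not called (adjusted p = 0.904). It had 359, 322 and 359 TPM at 1-2h and 360.3, 341 and 329 TPM at 0-1h, with overlap. Of the 12, 9 were called higher without the 2 libraries.

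Of the pair-rule genes, which set alternate segments, 7 of 9 rose (77.8%, against 26.8% of all genes), with a median of 2.06. eve had 46.9, 60.4 and 52.3 TPM at 1-2h and 8.44, 6.39 and 5.27 TPM at 0-1h (2.83 ± 0.21, adjusted p = 1.74e-06). ftz had 32.7, 43.1 and 38.6 TPM at 1-2h and 6.48, 5.65 and 4.17 TPM at 0-1h, run 37.4, 41.2 and 43.8 TPM at 1-2h and 8.75, 5.79 and 4.04 TPM at 0-1h, and prd 10.3, 12.5 and 10.3 TPM at 1-2h and 1.85, 2.11 and 1.70 TPM at 0-1h. These 4 were non-overlapping between the times, as were 64.0% of all genes tested. ftz-f1, the maternal cofactor of Ftz, differed by 0.11 and was not called (adjusted p = 0.0863). Of the segment polarity genes, which act inside each segment, 6 of 9 rose (66.7%, against 26.8% of all genes), with a median of 0.96. ptc, the Hedgehog receptor, had 14.7, 18.2 and 16.1 TPM at 1-2h and 8.67, 3.22 and 2.09 TPM at 0-1h, and ci, its transcription factor, 18.7, 21.8 and 21.3 TPM at 1-2h and 14.2, 4.73 and 2.86 TPM at 0-1h. In both, replicate 1 was the highest 0-1h library. arm, a beta-catenin with abundant maternal mRNA, rose by 0.27. Leaving out the 2 libraries raised the count of segment polarity genes to 9 of 9.

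Hox genes were not called, 0 of 3 (limma, adjusted p under 0.05). Antp had 3.06, 2.78 and 4.49 TPM at 1-2h and 4.88, 0.580 and 0.280 TPM at 0-1h, and abd-A 2.89, 2.01 and 3.93 TPM at 1-2h and 8.28, 0.318 and 0.0326 TPM at 0-1h. The first library at 0-1h exceeded the 1-2h libraries in both genes, and the groups overlapped. Without that library all 3 were called higher, and without the 2 that stood apart 2 were. At 2-3h Antp reached a mean of 34.5 TPM and abd-A 18.4 TPM in the same pool and genotype, in a table made separately for that time.

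Dorsal and lateral patterning genes are targets of the Dorsal gradient and the BMP pathway. Of 19 members, 14 were called higher (73.7%, against 26.8% of all genes) and 1 lower (5.26%, against 27.8%), with a median of 1.41. zen, a homeobox gene of the dorsal side, had 50.9, 75.9 and 77.7 TPM at 1-2h and 9.47, 10.9 and 6.76 TPM at 0-1h (2.78 ± 0.24, adjusted p = 3.82e-06). Its neighbour zen2 had 11.7, 15.5 and 16.6 TPM at 1-2h and 1.65, 2.16 and 1.03 TPM at 0-1h. Among the BMP ligands and their extracellular regulators, scw rose by 2.96, tsg by 2.66, tld by 2.30, sog by 2.02 and dpp by 1.86. The order is that of the differences, and the ligand dpp was low at both times, with 6.67, 8.75 and 9.97 TPM at 1-2h and 2.97, 1.20 and 0.978 TPM at 0-1h. brk, a repressor of Dpp targets, rose by 1.85, and vnd and ind, the columnar genes of the neuroectoderm, by 1.45 and 1.25. pnr, tup and Ance were not called, and in tup and Ance replicate 1 at 0-1h was the highest of the 6 libraries. The member called lower was ush, a cofactor of GATA factors, described with the genotype comparison. When the 2 libraries were left out, 17 were called higher.

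In the mesoderm list 8 of 11 members rose (72.7%, against 26.8% of all genes) and 1 fell (9.09%, against 27.8%). The median was 1.01. sna, a repressor that sets the mesoderm border, had 40.9, 54.4 and 58.7 TPM at 1-2h and 14.5, 8.06 and 5.46 TPM at 0-1h (2.42 ± 0.29, adjusted p = 3.09e-05). twi, the bHLH activator of the mesoderm, had 26.8, 36.2 and 33.9 TPM at 1-2h and 6.68, 6.31 and 3.47 TPM at 0-1h. fog, a secreted trigger of furrow folding, was evenly present, with 53.7, 54.5 and 54.6 TPM at 1-2h and 39.2, 43.0 and 41.1 TPM at 0-1h, and rose by 0.39. T48, which acts beside Fog, fell by 0.34 (adjusted p = 0.00682). Leaving out any one of replicates 2 and 3 of either time lowered the count of mesoderm genes called higher to 4, while 8 were called without the 2 libraries together.

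Early neuroectoderm factors had 9 of 13 members called higher (69.2%, against 26.8% of all genes) and 0 lower, with a median of 1.66. ac and l(1)sc, proneural neighbours of sc, rose by 2.79 and 2.58. ac had 20.6, 20.8 and 25.7 TPM at 1-2h and 4.39, 1.87 and 1.47 TPM at 0-1h. D, a Sox factor, had 56.3, 94.2 and 83.6 TPM at 1-2h and 17.8, 13.6 and 8.68 TPM at 0-1h. The 4 that were not called were E(spl) complex genes, targets of Notch. E(spl)m5-HLH had 10.3, 9.92 and 11.5 TPM at 1-2h and 12.4, 2.90 and 1.02 TPM at 0-1h, with replicate 1 at 0-1h above all others. Without the 2 libraries 12 of 13 were called higher.

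Most factors known to open the genome were already abundant at 0-1h. zld, the maternal pioneer factor that binds most early genes, had 610.3, 528 and 578 TPM at 1-2h and 473, 469 and 469 TPM at 0-1h, a difference of 0.28 (adjusted p = 0.00950). Trl, the GAGA factor, whose exons overlap those of Tsen34 on the same strand, had 273, 261 and 264 TPM at 1-2h and 201, 206 and 199 TPM at 0-1h, and Clamp rose by 0.36. opa, a pair-rule gene and later pioneer, had 16.1, 18.1 and 15.0 TPM at 1-2h and 5.30, 3.32 and 2.97 TPM at 0-1h. Of the 5 tested, 4 were called higher (80.0%, against 26.8% of all genes). Without the 2 libraries 2 were, and zld and Clamp were not called.

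Over the 8 zygotic and patterning lists together, each gene counted once, 72 of 94 genes were called higher and 3 lower, with a median of 1.63. Of all genes tested 26.8% were called higher and 27.8% lower. Under the 4 other scalings of the libraries the medians of each of these lists remained above 0.

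**Figure D4:**
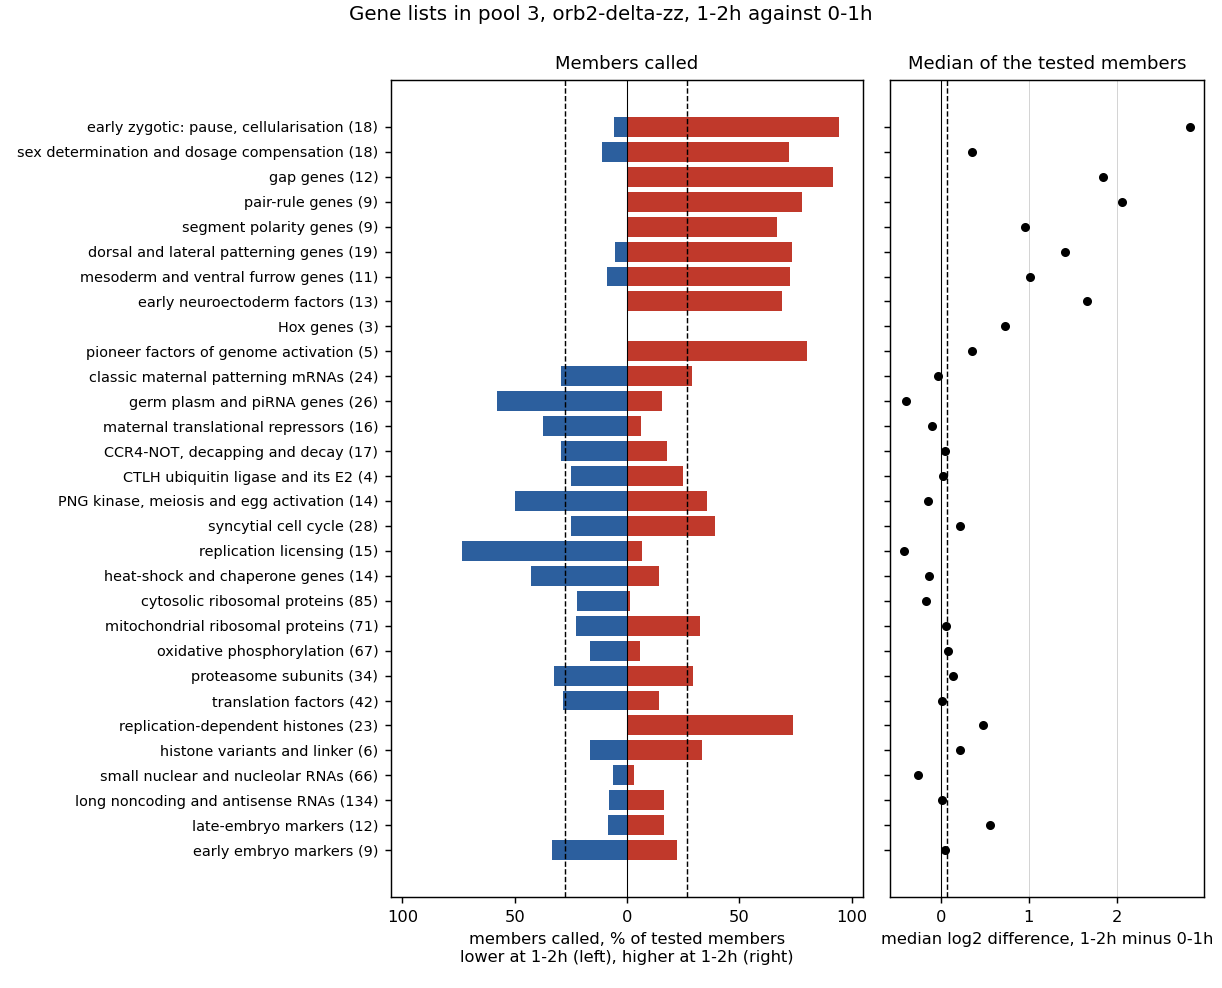
Share of each list's tested members called lower (left) or higher (right) at 1-2h against 0-1h in pool 3 of orb2-delta-zz embryos, with the number tested in brackets, and the median log2 difference of the tested members. Dashed lines give all 7254 genes, 27.8% lower, 26.8% higher and a median of 0.07.

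Single-exon genes were more frequent among the larger rises. In the Ensembl annotation, 8.82% of the tested protein-coding genes had a single exon in every transcript, against 34.0% (67 of 197) of those called at least 2-fold higher and 60.4% (55 of 91) of those at least 4-fold higher. Among genes called higher by under 2-fold it was 9.70% (166 of 1711). The share was 10.9% (62 of 567) in genes called at least 2-fold lower. The median longest transcript was 1038 nt in the genes at least 4-fold higher, 1905 nt in those at least 2-fold higher, 1701 nt in those at least 2-fold lower and 2100 nt over all genes tested. The median level of the 213 genes at least 2-fold higher was 18.6 TPM at 1-2h and 4.06 TPM at 0-1h. That of the 576 genes at least 2-fold lower was 20.2 TPM at 1-2h and 56.5 TPM at 0-1h. No test was run on these shares.

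At 2-3h, in a table made for that time, 192 of the 213 genes at least 2-fold higher (90.1%) had a higher mean than at 1-2h. Z600 averaged 47.8 TPM at 0-1h, 363 TPM at 1-2h and 1792 TPM at 2-3h, and term 25.1, 217 and 707 TPM in the same order of time. amos and nullo were not among the 192. amos averaged 4.74 TPM at 0-1h, 55.4 TPM at 1-2h and 5.24 TPM at 2-3h, and nullo 13.2, 109.8 and 36.6 TPM in that order. Of the 571 genes at least 2-fold lower that were listed at 2-3h, 455 (79.7%) had a lower mean than at 1-2h. Over all genes tested and listed at 2-3h, 40.6% were higher and 59.4% lower than at 1-2h. The choice of these genes used the 1-2h libraries, so the counts are descriptions.

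Genes listed only at 1-2h have no value at 0-1h. Of the 1039, 218 had a mean of at least 1 TPM and 32 a mean of at least 5 TPM, and in 29 of the 32 replicate 3, a library with high late-embryo markers, was the highest. CG10953 had 10.7, 25.6 and 75.5 TPM and CG31775 20.2, 17.5 and 74.4 TPM. CG31683 had 88.4, 89.5 and 90.1 TPM, nearly level over the 3 libraries, and in Sry-alpha replicate 2 was the highest. Of the genes listed only at 0-1h, a histone copy, His2B:CG17949, was the most abundant, with 2592, 3180 and 3453 TPM, but near-identical histone copies share reads and its level is uncertain.

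The 12 largest falls were in genes of varied roles, all above 20 TPM in every 0-1h library. Smyd5, a SET and MYND domain protein, had 6.20, 3.15 and 3.49 TPM at 1-2h and 30.9, 31.6 and 29.1 TPM at 0-1h, and fell by 2.62 on the log2 scale (SE 0.17, adjusted p = 8.24e-07, limma, n = 3 each). Polr3A, the largest subunit of RNA polymerase III, had 7.57, 4.48 and 5.05 TPM at 1-2h and 37.7, 36.1 and 34.6 TPM at 0-1h. CCDC53, a subunit of the WASH complex, had 4.99, 2.26 and 2.59 TPM at 1-2h and 21.9, 20.9 and 20.2 TPM at 0-1h. The 0-1h values lay closely together in these genes, and the 1-2h replicate 1 was the highest of its time in each. Cohesin, which holds sister chromatids together, had 2 subunits among the 12. SA1 had 13.0, 9.70 and 9.98 TPM at 1-2h and 58.6, 60.8 and 54.3 TPM at 0-1h, and SMC1 32.4, 22.0 and 24.6 TPM at 1-2h and 126, 119 and 115 TPM at 0-1h. Mis12, a kinetochore protein, had 13.3, 7.05 and 8.10 TPM at 1-2h and 45.1, 49.5 and 41.4 TPM at 0-1h.

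GstD1, a glutathione transferase, was the most abundant of the 12, with 584, 398 and 422 TPM at 1-2h and 2291, 2377 and 2206 TPM at 0-1h (-2.31 ± 0.22, adjusted p = 8.19e-06). Cox17, a copper chaperone of cytochrome oxidase, had 40.8, 21.6 and 22.3 TPM at 1-2h and 157, 136 and 122 TPM at 0-1h. P32, a maternal protein that removes protamines from sperm chromatin, had 48.1, 33.4 and 36.4 TPM at 1-2h and 172, 198 and 170.4 TPM at 0-1h. sut1, a sugar transporter, Xpac, a DNA repair factor, and Dpm1, of dolichol-linked sugar synthesis, fell by 2.22, 2.22 and 2.20. Exons of SA1 (194 nt), sut1 (100 nt), Xpac (41 nt), Dpm1 (20 nt) and CCDC53 (7 nt) overlap a gene on the opposite strand. The sources used here do not say whether the authors' counting used strand. Other named genes overlap too, such as CycK (1833 nt, opposite strand) and osk, BicC and Syx1A (1131, 1128 and 447 nt, same strand). Among genes with only a CG number, CG31075 (-2.84), CG15047 (-2.63) and CG34150 (-2.61) fell most. CG31075 had 15.8, 10.1 and 10.6 TPM at 1-2h and 86.2, 103 and 86.1 TPM at 0-1h.

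Of the germ plasm and piRNA genes, which form the germ line and silence transposons, 15 of 26 were called lower, against 27.8% of all genes, and 4 higher, with a median of -0.40. vas, the germ-line helicase whose exons overlap those of solo on the same strand, had 128, 108 and 112 TPM at 1-2h and 304, 313 and 306 TPM at 0-1h (-1.40 ± 0.15, adjusted p = 1.94e-05). shu and tud fell by 1.34 and 0.93. piwi had 105, 94.1 and 112 TPM at 1-2h and 158, 180.0 and 166 TPM at 0-1h. osk, which builds the germ plasm, had 743, 618 and 676 TPM at 1-2h and 1008, 951 and 899 TPM at 0-1h, and pgc, a repressor of transcription in germ cells, 389, 323 and 354 TPM at 1-2h and 519.8, 629.8 and 592 TPM at 0-1h. The call of osk was lost without the 2 libraries (difference -0.45). The members called higher were tej, zuc, mael and csul, of the piRNA pathway, with differences of 0.33, 0.47, 0.44 and 0.18.

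Classic maternal patterning mRNAs moved both ways, with 7 of 24 higher (29.2%) and 7 lower (29.2%), near the 26.8% and 27.8% of all genes, and a median of -0.03. exu, which localises bcd mRNA, had 252, 175 and 208 TPM at 1-2h and 708, 859.5 and 806 TPM at 0-1h (-1.91 ± 0.25, adjusted p = 7.55e-05). BicC, a translational repressor, had 586, 416 and 446 TPM at 1-2h and 1149, 1312 and 1297 TPM at 0-1h. clos and fs(1)N, egg-shell proteins of the terminal signal, fell by 1.05 and 0.67. cact, the inhibitor of Dorsal, rose by 0.34, and dl itself fell by 0.42. Without the 2 libraries no member was called higher (0) and 6 were called lower, and with single libraries left out 2 were called higher without replicate 1 of 0-1h, 3 without replicate 2 of 0-1h or replicate 1 of 1-2h, and 4 without replicate 3 of 1-2h. The list's median was between -0.06 and 0.04 under the 4 other scalings.

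Maternal translational repressors had 6 of 16 members called lower (37.5%, against 27.8% of all genes) and 1 higher (6.25%, against 26.8%). bru1 had 802, 744 and 846 TPM at 1-2h and 1067, 1169 and 1118 TPM at 0-1h, orb fell by 0.52, and bel, a DEAD-box helicase, by 0.69. pum was the member called higher (0.21), and its call was lost without the 2 libraries (0.19). smg, a main repressor of the early embryo and an activator of maternal mRNA destruction, had 1484, 1505 and 1577 TPM at 1-2h and 801, 1469.5 and 1473 TPM at 0-1h and was not called (adjusted p = 0.253), with 0-1h replicate 1 far below the other libraries. me31B and tral, its partners, were above 2000 TPM in every library and were not called. Of the deadenylation and decay factors, 5 of 17 fell (29.4%) and 3 rose (17.6%), shares close to and below those of all genes (27.8% lower and 26.8% higher). The count higher was 1 without the 2 libraries and 1 to 4 under the other scalings. Not11 of the CCR4-NOT complex had 19.1, 14.2 and 16.8 TPM at 1-2h and 69.9, 62.3 and 69.1 TPM at 0-1h (-1.95 ± 0.13, adjusted p = 8.24e-07). LSm1 had 25.9, 16.7 and 17.9 TPM at 1-2h and 81.0, 79.5 and 75.1 TPM at 0-1h, and LSm7 of the same ring 22.5, 23.1 and 17.6 TPM at 1-2h and 47.5, 49.7 and 34.3 TPM at 0-1h. The core subunits Not1, Not3, Pop2 and twin were not called, with differences from -0.05 to 0.10.

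PNG kinase, meiosis and egg activation genes had 7 of 14 members called lower, against 27.8% of all genes. A further 5 were called higher (35.7%, against 26.8% of all genes), and 3 without the 2 libraries. cort, which switches on the anaphase-promoting complex of meiosis, had 15.3, 11.9 and 12.4 TPM at 1-2h and 62.3, 61.4 and 57.9 TPM at 0-1h (-2.12 ± 0.19, adjusted p = 5.39e-06). The 3 subunits of the PNG kinase, which starts translation at egg activation, differed. png had 54.4, 40.4 and 45.7 TPM at 1-2h and 116, 124 and 109.6 TPM at 0-1h, gnu fell by 0.47, and plu was not called (0.02, adjusted p = 0.872). mtrm, a meiotic inhibitor of Polo, fell by 0.89, and polo rose by 0.22. sra, the calcineurin regulator of egg activation, had 213, 218 and 208 TPM at 1-2h and 142, 139.8 and 145 TPM at 0-1h.

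Genes of the syncytial cell cycle were divided, with 11 of 28 higher (39.3%, against 26.8% of all genes) and a median of 0.22. In this list 7 were lower (25.0%, near the 27.8% of all genes). The Cdc25 phosphatase twe had 374, 378 and 361 TPM at 1-2h and 246, 252 and 252 TPM at 0-1h (0.57 ± 0.07, adjusted p = 5.03e-05), while its relative stg was not called (-0.06, adjusted p = 0.546). CycD and CycK rose by 0.57 and 0.48, and Cdk1 by 0.37. CycA and CycB, the mitotic cyclins, were not called, and their 0-1h replicate 1 was the lowest library, at 975 and 2202 TPM. The checkpoint kinases mei-41 and grp, homologues of ATR and Chk1, fell by 0.77 and 0.37. Without the 2 libraries, 7 members were called higher and 2 lower, and without replicate 1 of 1-2h alone 7 were higher.

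Most replication licensing genes fell, 11 of 15 (73.3%, against 27.8% of all genes), with 1 higher and a median of -0.41. Orc2 had 28.3, 25.6 and 25.1 TPM at 1-2h and 67.1, 72.8 and 65.9 TPM at 0-1h (-1.35 ± 0.14, adjusted p = 1.00e-05), and Orc4 38.6, 31.7 and 33.9 TPM at 1-2h and 81.1, 84.2 and 80.0 TPM at 0-1h. Of the Mcm helicase, Mcm3 fell by 0.77, dpa, its Mcm4 subunit, by 0.70 and Mcm5 by 0.41, and Mcm7 was not called (0.26, adjusted p = 0.153). geminin, the inhibitor of licensing, was the member called higher, with 1035, 1007 and 927 TPM at 1-2h and 884, 732 and 751 TPM at 0-1h. No member was called higher (0) without replicate 2 of 0-1h or replicate 1 of 1-2h. The count of 11 lower was the same without the 2 libraries and under each of the 4 other scalings.

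Chaperone genes had 6 of 14 members called lower (42.9%, against 27.8% of all genes) and 2 higher (14.3%, against 26.8%). Hsp26, a small heat-shock protein stored in the egg, had 1086, 800.5 and 933 TPM at 1-2h and 2872, 3215 and 2927 TPM at 0-1h (-1.68 ± 0.19, adjusted p = 2.25e-05). Hsp83, the Hsp90 gene and a known Smaug target, had 1543, 1352 and 1475 TPM at 1-2h and 1999.8, 2604 and 2583 TPM at 0-1h. Hsp60A and Hsc70-5 of mitochondria fell by 0.85 and 0.54. Hsp70Ab also fell, by 0.81, but its near-identical copies share reads.

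Translation and energy genes had list medians between -0.17 and 0.08. Of all genes tested, 26.8% were called higher and 27.8% lower. The shares lower were 22.4% for cytosolic and 22.5% for mitochondrial ribosomal proteins, 16.4% for oxidative phosphorylation and 28.6% for translation factors. These were close to or below the share of all genes. The shares higher were 1.18%, 32.4%, 5.97% and 14.3% in the same order. Cytosolic ribosomal protein genes had 19 of 85 members called lower and 1 higher, RpL7-like, with a median of -0.17. The count lower was 9 to 22 under the other scalings, and 10 without the 2 libraries. With single libraries left out it was 7 without replicate 3 of 0-1h, 8 without replicate 2 of 0-1h or replicate 1 of 1-2h, and 12 without replicate 2 of 1-2h. RpL38 had 346, 389.7 and 311 TPM at 1-2h and 669, 559 and 546 TPM at 0-1h, and its call was lost without the 2 libraries (-0.59). Mitochondrial ribosomal protein genes moved both ways, with 23 of 71 higher (15 without replicate 2 of 0-1h, 14 without replicate 2 of 1-2h) and 16 lower. mRpL38 had 15.2, 10.4 and 11.2 TPM at 1-2h and 55.8, 57.9 and 53.4 TPM at 0-1h (-2.11 ± 0.12, adjusted p = 4.42e-07), and mRpS7 rose by 0.54. Oxidative phosphorylation genes had 4 of 67 higher (8 without the 2 libraries, 9 without replicate 1 of 0-1h, 2 without replicate 2 or 3 of 0-1h or replicate 2 of 1-2h) and 11 lower, with UQCR-C2 of complex III at 57.0, 51.4 and 53.6 TPM at 1-2h and 142, 151 and 147 TPM at 0-1h. Translation factors had 6 of 42 higher and 12 lower. eIF2beta had 185, 159 and 153 TPM at 1-2h and 391, 384 and 381 TPM at 0-1h, and eIF5 602, 602 and 588 TPM at 1-2h and 439, 439 and 439.7 TPM at 0-1h.

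Replication-dependent histone genes had 17 of 23 listed copies called higher (73.9%, against 26.8% of all genes) and 0 lower, with a median of 0.48. Salmon divides reads among near-identical copies, so the levels of single copies are uncertain. His2B:CG33868 had 2356, 2796 and 2457 TPM at 1-2h and 1614, 1429.7 and 1404 TPM at 0-1h, and His1:CG31617, the linker histone, 634, 684 and 644 TPM at 1-2h and 485, 477 and 484 TPM at 0-1h. Among the variants His3.3B rose by 0.57, and cid, the centromeric histone H3, fell, with 39.5, 33.2 and 33.2 TPM at 1-2h and 95.2, 105 and 97.8 TPM at 0-1h (-1.47 ± 0.14, adjusted p = 7.58e-06). BigH1, the embryonic linker histone, was not called (-0.09, adjusted p = 0.410).

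Noncoding RNAs gave few calls beside the 26.8% higher and 27.8% lower of all genes. Of 66 small nuclear and nucleolar RNAs, 4 fell (7 without replicate 1 of 1-2h in either genotype) and 2 rose. snRNA:U11 of the minor spliceosome had 170.1, 171 and 151 TPM at 1-2h and 249.5, 394 and 407 TPM at 0-1h, and snRNA:U5:23D 102, 70.8 and 109 TPM at 1-2h and 41.6, 34.1 and 26.6 TPM at 0-1h. Of 134 long noncoding and antisense RNAs, 22 rose (16.4%) and 11 fell (8.21%). lncRNA:CR45916 had 9.75, 15.1 and 14.8 TPM at 1-2h and 2.37, 1.69 and 1.18 TPM at 0-1h. lncRNA:bxd, from the bithorax complex, rose by 1.55, with 2.95, 4.79 and 3.83 TPM at 1-2h and 1.04, 0.633 and 0.330 TPM at 0-1h.

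The change was set beside that of wild type pool 3 over the same hours, which shares no library with it. In wild type 2169 of the 7254 genes were called higher (29.9%) and 2349 lower (32.4%). Across the genes the changes of orb2-delta-zz and wild type had a Pearson r of 0.924 and the same sign in 89.8%, a description over genes, which are not replicates. Of the 213 genes at least 2-fold higher in orb2-delta-zz, 211 were so in wild type (99.1% of the orb2-delta-zz list, 61.5% of the 343 of wild type). Of the 576 at least 2-fold lower, 538 were so in wild type (93.4% of the orb2-delta-zz list, 69.3% of the 776 of wild type). The difference of the changes, tested in the same fit, was called for 23 genes (0.317%), 14 higher in orb2-delta-zz (0.193%) and 9 lower (0.124%), and 602 genes had an unadjusted p under 0.05.

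**Figure D5:**
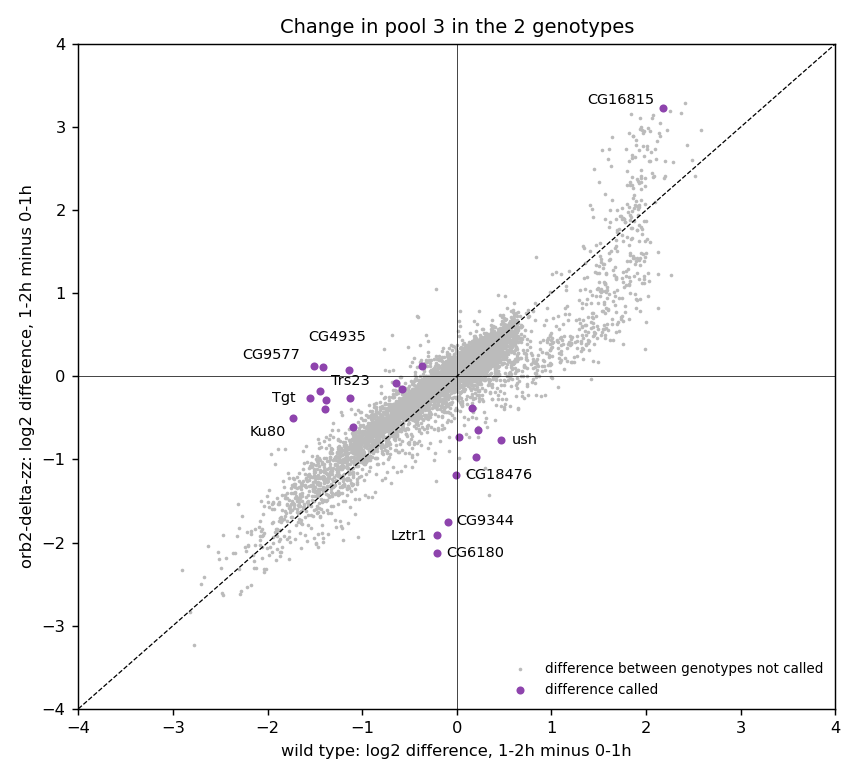
Log2 difference, 1-2h minus 0-1h, in orb2-delta-zz pool 3 against the same in wild type pool 3 for 7254 genes (n = 3 libraries per group). Purple points are the 23 genes whose changes differed between the genotypes (limma, adjusted p under 0.05); the dashed line marks equal change.

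In the 3 highest differences the change was called in wild type and not in orb2-delta-zz. CG9577 had 101, 98.6 and 100.1 TPM at 1-2h and 90.5, 92.9 and 92.0 TPM at 0-1h in orb2-delta-zz, against 21.3, 17.0 and 21.2 TPM at 1-2h and 58.5, 59.7 and 56.1 TPM at 0-1h in wild type. The level was higher in orb2-delta-zz at both times and fell in wild type, and the changes differed by 1.63 ± 0.11 (adjusted p = 7.18e-05). CG4935 had 18.1, 21.2 and 19.6 TPM at 1-2h and 16.7, 19.1 and 18.3 TPM at 0-1h in orb2-delta-zz, against 5.20, 4.34 and 3.87 TPM at 1-2h and 13.7, 13.3 and 13.5 TPM at 0-1h in wild type. Tgt, a tRNA-guanine transglycosylase, had 30.7, 34.8 and 30.0 TPM at 1-2h and 34.0, 39.0 and 42.4 TPM at 0-1h in orb2-delta-zz, against 8.99, 7.10 and 7.90 TPM at 1-2h and 24.01, 25.7 and 26.3 TPM at 0-1h in wild type. All 3 had higher levels in orb2-delta-zz than in wild type at both times. Trs23, of the TRAPP complex, and Ku80, of DNA end joining, differed by 1.27 and 1.23. Trs23 was called in 5 of the 12 fits that left out a library, and Ku80 in 10 but not without the 2 libraries that stood apart (1.15).

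The converse pattern was led by CG6180, which had 41.7, 35.3 and 33.1 TPM at 1-2h and 151, 168 and 170.5 TPM at 0-1h in orb2-delta-zz, against 274, 236 and 233 TPM at 1-2h and 334, 269 and 258 TPM at 0-1h in wild type. The changes differed by -1.92 ± 0.16 (adjusted p = 2.95e-04). Lztr1, an adaptor for the ubiquitination of RAS, had 11.0, 8.41 and 7.98 TPM at 1-2h and 38.6, 37.4 and 34.1 TPM at 0-1h in orb2-delta-zz, against 2.47, 2.67 and 2.35 TPM at 1-2h and 3.22, 2.94 and 2.94 TPM at 0-1h in wild type. It was above wild type in every library at both times. Its difference of -1.70 between the genotypes was -1.05 with quantile normalization and was not called there. CG9344 and CG18476 fell in orb2-delta-zz and were not called in wild type, with differences between the genotypes of -1.65 and -1.19. That of CG9344 was not called without the 2 libraries (-1.46). ush had 8.37, 6.9997 and 7.36 TPM at 1-2h and 16.8, 12.5 and 11.8 TPM at 0-1h in orb2-delta-zz, against 15.4, 17.97 and 15.996 TPM at 1-2h and 10.9, 13.3 and 10.8 TPM at 0-1h in wild type. It fell in orb2-delta-zz and rose in wild type, and its exons overlap lncRNA:CR46258 on the same strand. The call held in 6 of 12 fits that left out a library each and was lost without the 2 libraries (-1.07).

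Of the 23 genes, 14 lie on arm 2L (60.9%, against 17.7% of the genes tested) and 5 on X. Calls in every one of the 12 fits that left out a library were made for 8 genes: CG6180, Lztr1, CG18476, bsf, Pus10, Tgt, CG4935 and CG9577. Pus10 was not called without the 2 libraries together. bsf, which binds and stabilises bcd mRNA, differed by 1.11.

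The early zygotic genes rose in both genotypes. bnk had 213, 359 and 316 TPM at 1-2h and 33.5, 40.1 and 25.8 TPM at 0-1h in orb2-delta-zz, against 448, 729 and 580.2 TPM at 1-2h and 99.5, 157 and 164 TPM at 0-1h in wild type. The wild type libraries were higher than the orb2-delta-zz libraries at both times. The median change of the early zygotic list was 2.83 in orb2-delta-zz and 1.85 in wild type, and 0 of its 18 genes differed between the genotypes (limma, adjusted p under 0.05). CG16815, which is on no list and is among the largest rises, differed by 1.06 (adjusted p = 0.0271), with 60.1, 65.0 and 62.7 TPM at 1-2h and 12.0, 14.5 and 12.8 TPM at 0-1h in wild type. This difference was called in 3 of the 12 fits that left out a library, and not without the 2 libraries that stood apart.

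The 132 genes called at least 2-fold higher in wild type but not in orb2-delta-zz had median changes of 0.66 in orb2-delta-zz and 1.44 in wild type. In 130 of them replicate 1 was the highest of the 0-1h libraries of orb2-delta-zz. Their median level was 2.87, 2.85 and 3.80 TPM in the 1-2h libraries, against 4.29, 0.851 and 0.439 TPM in the 0-1h libraries of orb2-delta-zz. Without that 0-1h library 82 of the 132 were called at least 2-fold higher in orb2-delta-zz too, and without the 2 libraries that stood apart 64 were. The choice of the 132 used these libraries, and a high 0-1h value makes a rise smaller, so these counts are descriptions. None (0) of the 132 differed between the genotypes in the test of the difference. In wild type, replicate 2 at 1-2h stood apart in the same way, with 1520 TPM over the late-embryo markers listed at 1-2h, against 642 and 640 TPM in the other libraries of its group.

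The edited gene itself was steady. orb2 had 24.6, 24.5 and 27.2 TPM at 1-2h and 27.7, 25.2 and 23.2 TPM at 0-1h in orb2-delta-zz, and 30.8, 28.0 and 31.2 TPM at 1-2h and 32.5, 31.3 and 30.7 TPM at 0-1h in wild type. The groups overlapped between the times, and neither the change (0.01 ± 0.08, adjusted p = 0.939) nor its difference from wild type (adjusted p = 0.870) was called. A deletion of 1 domain leaves most of the transcript, so its TPM does not check the labels, and its exons overlap those of CG43783 on the same strand.

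Pool 1 of the same orb2-delta-zz gradients gave a further comparison, through the log2 ratio of pool 3 to pool 1 in each gradient. Of 6589 genes that averaged 1 TPM or more in each pool, 1746 (26.5%) had a ratio that was higher at 1-2h and 600 (9.11%) one that was lower, with a median change of 0.11. This split rests on the scaling: with median-ratio scaling 1722 were higher and 2437 lower, with a median of -0.21. The small RNA share was 0.745% to 1.14% in the pool 3 libraries and 10.1% to 14.8% in those of pool 1, and its part in the split was not tested. The directions below are therefore relative to TPM. The genes named below for the largest ratio changes kept their direction and call under the 4 other scalings. For the histone copy only 3 applied, since the other scaling leaves histone genes out.

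In the largest ratio rises the pool 1 level differed more than the pool 3 level. Vps11, of the vacuolar sorting complexes, had 159, 137 and 151 TPM at 1-2h and 92.1, 115 and 116 TPM at 0-1h in pool 3, and 9.15, 5.81 and 6.51 TPM at 1-2h and 70.9, 63.5 and 58.4 TPM at 0-1h in pool 1. Its ratio rose by 3.49 ± 0.28 (limma, adjusted p = 1.21e-06). put, a type II receptor of the BMP and activin pathways, had 274, 251 and 264 TPM at 1-2h and 175, 185 and 188 TPM at 0-1h in pool 3, and 16.9, 10.2 and 10.54 TPM at 1-2h and 102, 66.6 and 71.0 TPM at 0-1h in pool 1. CG11920 had a ratio change of 3.15. All 3 rose slightly in pool 3 and were several-fold lower at 1-2h in pool 1. His2B:CG33902 had the highest change, 6.44, but is one of many near-identical histone copies.

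In the opposite direction, CG15435 had 77.1, 54.3 and 56.0 TPM at 1-2h and 104, 99.9 and 98.6 TPM at 0-1h in pool 3, and 23.9, 23.4 and 19.3 TPM at 1-2h and 5.46, 4.19 and 5.001 TPM at 0-1h in pool 1, a ratio change of -2.68 (adjusted p = 3.38e-06). Calr, the chaperone calreticulin, had 822, 672 and 755 TPM at 1-2h and 919, 931 and 960.3 TPM at 0-1h in pool 3, and 207, 270.1 and 205 TPM at 1-2h and 89.2, 58.6 and 75.9 TPM at 0-1h in pool 1. toc, HipHop, a telomere cap protein, and ACC, the enzyme of fatty acid synthesis, had ratio changes of -2.21, -2.06 and -1.94. HipHop fell in pool 3, with 57.5, 45.7 and 48.7 TPM at 1-2h and 168, 138 and 131 TPM at 0-1h, and was higher at 1-2h in pool 1, with 198, 166 and 174 TPM at 1-2h and 122.9, 114 and 126 TPM at 0-1h. Of the early zygotic genes, calls were made in 3 of 18 cases for a higher and 2 for a lower ratio, against 26.5% and 9.11% of all genes. bnk had 76.2, 76.0 and 103 TPM at 1-2h and 5.69, 5.13 and 3.93 TPM at 0-1h in pool 1, so that it was higher at 1-2h in both pools, and its ratio changed by -0.75 (adjusted p = 0.0255).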

How the data were processed

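Reads were trimmed with Trim Galore 0.6.5 and quantified with Salmon 1.9.1, per the submitters' processing notes, which also name DESeq2 1.42.1. The authors deposited TPM and, as a signal, normalized counts per gene, in 1 table of each kind for each time. The genome build and annotation are not named in the sources used here. Gene names came from the reference tables given with the files, and exon counts, transcript lengths and chromosome arms from Ensembl 115 (BDGP6).

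TPM were transformed to log2(TPM + 1). Genes listed at both times with a mean of at least 1 TPM over the 6 libraries were fitted with limma 3.58.1 (R 4.3.3, trend) over the 12 pool 3 libraries of both genotypes at 0-1h and 1-2h, with p-values adjusted over all genes tested (Benjamini-Hochberg) and a threshold of 0.05. The difference between genotypes was an interaction term of that fit. The pool comparison used the log2 ratio of pool 3 to pool 1 within each gradient, matched by genotype, time and replicate number. Deviations of the matched orb2-delta-zz libraries correlated at 0.11, 0.01 and 0.14 at 0-1h and at 0.36, 0.20 and -0.05 at 1-2h. Normalized counts were used for library totals and for 1 alternative. Whole reads could not be recovered for genes with several transcripts, so no count test was run, and counting intervals were not computed. The fits were tested on simulated data.

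The 33 gene lists and the compared libraries were chosen with earlier results of these data known. Named genes are the 12 largest called changes each way and the 3 each way with CG numbers. These needed a mean of at least 5 TPM and no overlap between the 3 libraries of each time. In each list, up to 4 called members with the largest change relative to its limma standard error were named. Also named are the 5 largest differences each way between genotypes and between pools, and orb2. Others were named after their values were seen. One gene of the pool comparison is not reported here. Some 24 settings were tried: other pseudocounts (0.1 and 5), filters and scalings, all 24 libraries of both pools, a replicate block, each library left out, and both libraries that stood apart left out. Replicate numbers did not pair the samples: deviations of same-numbered orb2-delta-zz libraries correlated at -0.28, 0.22 and -0.37.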

Additional observations from a re-analysis of the deposited data

Results flagged for a closer look

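For 23 genes the change from 0-1h to 1-2h in pool 3 was not the same in orb2-delta-zz as in wild type, by the interaction term of the limma fit (adjusted p under 0.05). Values below are the log2 change in orb2-delta-zz minus that in wild type.

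The difference was below 0 for 9 genes: CG6180 (-1.92), Lztr1 (-1.70), CG9344 (-1.65), ush (-1.23), CG18476 (-1.19), GatC (-1.17), CG3036 (-0.87), Arp10 (-0.74) and ecd (-0.54). Arp10 is a dynactin subunit, and GatC acts in mitochondrial glutaminyl-tRNA synthesis. Exons of GatC overlap an unnamed gene on the same strand and Orc5 on the other.

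It was above 0 for 14 genes: CG9577 (1.63), CG4935 (1.53), Tgt (1.29), Trs23 (1.27), Ku80 (1.23), Pus10 (1.22), bsf (1.11), CG16815 (1.06), Rca1 (1.00), CCT4 (0.87), scu (0.56), cpb (0.49), Coq7 (0.49) and bonsai (0.43). Tgt and Pus10 both modify tRNA bases, Rca1 inhibits the anaphase-promoting complex, and CCT4 is a chaperonin subunit. Exons of Pus10 overlap ND-15 on the opposite strand.

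Calls of bonsai, Coq7 and scu were made in 0 of the 12 fits that left out a library, and 13 of the 23 genes were called in at least 6 of the 12.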

How the results depend on the processing

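With all 24 libraries of both pools in 1 fit, 459 genes were called higher and 1183 lower at 1-2h, and 1625 of these 1642 calls were also made with pool 3 alone. Leaving out each library gave 1586 to 2068 higher and 1826 to 2084 lower. Differences between genotypes fell to 5 higher and 3 lower without the 2 libraries that stood apart, and to 5 to 10 higher and 3 to 8 lower without each library. With the replicate number as a block they were also 5 and 3; no pairing was found, and not every sample correlated best with its own number. In that block 1752 genes were higher and 1953 lower over time. The pool ratio was lower for 2276 genes with quantile normalization, 2437 with median-ratio scaling and 2475 with normalized counts. It was higher for 1129 without the 2 libraries. Leaving out each library gave 1300 to 2141 higher and 306 to 969 lower. The count of 1300 was without orb2-delta-zz 1-2h replicate 2, that of 306 without orb2-delta-zz 0-1h replicate 2, and both highest counts without wild type 0-1h replicate 1. The change of orb2, 0.01, was -0.01 with median-ratio scaling, and -0.05 to 0.07 without each library. The cause of these shifts was not tested. Over the named genes, 3600 values kept direction and call, 63 lost the call, 1 gained it and 3, all of orb2, changed sign. The planned description of promoter motifs was not run. Genes at a few TPM rest on few reads and limit precision.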

Other observations

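Subunits of the proteasome, the protease that degrades ubiquitin-tagged proteins, were divided by particle after the values were seen in orb2-delta-zz pool 3. Of 14 subunits of the core particle, which holds the proteolytic sites, 8 were called higher and 0 lower at 1-2h, with a median of 0.26. Of 18 subunits of the regulatory particle, which binds and unfolds substrates, 2 were called higher and 11 lower, with a median of -0.41. Without the 2 libraries that stood apart, 0 were called higher and 11 lower. Over all genes tested 26.8% were called higher and 27.8% lower. Rpn11, the subunit that removes ubiquitin, had 161, 127 and 139 TPM at 1-2h and 369.9, 404 and 380.1 TPM at 0-1h (-1.43 ± 0.12, adjusted p = 3.50e-06, limma, n = 3 each). Rpn8, its partner, had 94.5, 90.6 and 96.3 TPM at 1-2h and 174, 212 and 201 TPM at 0-1h. Prosalpha4 of the core had 474, 509 and 476 TPM at 1-2h and 333, 386 and 402 TPM at 0-1h, and Prosbeta4 479.7, 552 and 469.9 TPM at 1-2h and 371, 401 and 396 TPM at 0-1h. None of these 4 genes overlapped between the times, as in 64.0% of all genes tested. Under the 4 other scalings the core had 7 to 11 subunits higher and 0 lower, and the regulatory particle 1 to 2 higher and 11 lower. In wild type pool 3 the core had 5 subunits higher and 0 lower, and the regulatory particle 1 higher and 13 lower, against 29.9% higher and 32.4% lower over all genes. No test of the difference between the particles was run.

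The noncoding RNA lncRNA:roX1, which guides dosage compensation to the X chromosome of males, was also looked at after its values were seen. It had 45.5, 62.2 and 75.5 TPM at 1-2h and 40.95, 11.2 and 6.14 TPM at 0-1h, and rose by 1.98 ± 0.51 (adjusted p = 0.00592). Replicate 1 at 0-1h, the library highest in late-embryo markers, was the highest of its time and lay just below the 1-2h libraries. Wild type had 137, 165 and 117 TPM at 1-2h and 25.6, 46.5 and 48.6 TPM at 0-1h.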
